A study of Mus musculus with 20 samples.

Results

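Macrophages and microglia of the eye were followed through 10 marker genes: Csf1r, Adgre1, Aif1, Cd68, Cx3cr1, Mrc1, Lyve1, Cd163, Itgam and Ptprc. They were chosen by symbol alone. All 10 were found among the 24411 genes of the table, and all 10 were among the 18807 genes tested, which had at least 5 reads in total. The tissue was the outer eyecup, RPE and choroid, from C57BL/6 mice that were either wild type (WT) or homozygous Stra6 knockouts (Stra6-/-), which lack the receptor that takes up retinol from its carrier in blood. After weaning, the mice received a vitamin A sufficient diet (VAS, 4 IU/g) or a vitamin A deficient diet (VAD, 0 IU/g) for 12 weeks, which gave 4 groups of 5 mice: VAS WT, VAD WT, VAS Stra6-/- and VAD Stra6-/-. Both eyecups of a mouse were pooled, and before weaning all litters stayed with dams on standard chow. The comparisons asked how loss of Stra6 and dietary vitamin A restriction were reflected in these markers.

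Macrophages are phagocytes that settle in nearly every organ, and microglia are their counterparts in the retina and brain. Both depend on the receptor encoded by Csf1r and on its ligands, and the transcription factor PU.1, encoded by Spi1, sets their gene programme. In the healthy eye, macrophages lie in the choroid around its vessels, while microglia lie in the inner retina and can move to the RPE when photoreceptors or the RPE are damaged. In RNA from a whole eyecup, fewer cells of a type and less RNA per cell cannot be told apart.

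Libraries held 13331903 to 21878614 reads (median 17785927). The level of the targeted gene, not set against RPE content, did not settle the labels of either VAD group. Stra6 lay between 2414 and 2742 normalised read counts in VAS WT, 669 and 1529 in VAD WT, 564 and 694 in VAS Stra6-/-, and 1973 and 2393 in the libraries labelled VAD Stra6-/-. In the last group it was higher than in VAD WT (log2 fold change 1.23, SE 0.18, adjusted p = 3.918e-06, limma), so the genotype of these 5 libraries is given below only as a label. Within VAD WT, Stra6 was 669 to 697 in replicates 1, 3 and 5, which overlapped VAS Stra6-/-, and 1340.1 and 1529 in replicates 2 and 4, and the group was lower than VAS WT (-1.49, SE 0.18, adjusted p = 6.737e-06). VAD WT is therefore given as a label too, and whether diet, genotype or RPE content lowered Stra6 there cannot be told apart. The paper places Stra6 in the RPE. The summed value of 10 RPE markers was 115534 to 132722 in VAS WT and 34248 to 60364 in VAD WT. It was 119338 to 125406 in VAS Stra6-/- and 523360 to 566867 in the libraries labelled VAD Stra6-/-. The part of RPE content in the Stra6 values was not tested. The sex of the mice was not labelled. The Y-linked Ddx3y lay at 981 or above in VAS WT and at 0 to 1.02 in VAS Stra6-/-, so sex transcripts separated these 2 groups as genotype did. VAD WT replicates 2 and 4 held Xist at 10912 and 11767 and Ddx3y at 75.2 and 80.5, whereas replicates 1, 3 and 5 held Xist at 174 to 234 and Ddx3y at 1041 to 1133. The libraries labelled VAD Stra6-/- held both, Xist at 3570 to 4280 and Ddx3y at 741 to 970. The paper counts each library as a single mouse, and the SEs and p-values below do the same. Whether a library with both sex transcripts held RNA of a single mouse was not tested. The corneal keratin Krt12 was found at 113908 to 400653 in the other 3 groups and at 2179 to 3433 in the libraries labelled VAD Stra6-/-, and their summed RPE markers were 523360 to 566867 against 34248 to 132722 elsewhere. Directions below that involve either VAD group rest on the labels. The part of sex transcripts and of tissue makeup in the results was not tested.

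To show what the promoters of the markers share, 300-base windows around the RefSeq starts (GRCm38.p6) were searched on both strands. A window was given for 7 of the 10 markers. These 7 have 8 windows, 2 of them of Ptprc. The core of the PU.1 site, GAGGAA, was found in 5 of the 8 windows, those of Aif1, Cd68, Itgam, Mrc1 and 1 of Ptprc, and in 28.3% of all 32817 windows. The core of the retinoic acid receptor site, AGGTCA, was found in 1 of the 8, that of Aif1, and in 16.3% of all windows. The 4 windows below are those of Mrc1, Cd68, Itgam and Cx3cr1, chosen by the marker levels. Against VAD WT, the libraries labelled VAD Stra6-/- were higher in Mrc1 and Cd68 and lower in Itgam. Cx3cr1 had its lowest mean in VAS Stra6-/-. Between VAD WT and VAS WT, Cd68 was called lower and Mrc1 was not called. Mrc1 lies at chr2:14229164-14229463 (plus strand), Cd68 at chr11:69666121-69666420 (minus strand), Itgam at chr7:128062390-128062689 (plus strand) and Cx3cr1 at chr9:120068247-120068546 (minus strand). Capitals mark GAGGAA or its reverse complement TTCCTC.
Mrc1: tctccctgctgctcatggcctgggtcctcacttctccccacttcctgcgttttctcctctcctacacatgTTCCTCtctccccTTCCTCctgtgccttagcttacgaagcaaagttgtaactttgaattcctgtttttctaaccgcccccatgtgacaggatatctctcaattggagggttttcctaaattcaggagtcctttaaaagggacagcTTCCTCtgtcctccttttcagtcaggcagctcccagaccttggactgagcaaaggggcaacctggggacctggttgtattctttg
Cd68: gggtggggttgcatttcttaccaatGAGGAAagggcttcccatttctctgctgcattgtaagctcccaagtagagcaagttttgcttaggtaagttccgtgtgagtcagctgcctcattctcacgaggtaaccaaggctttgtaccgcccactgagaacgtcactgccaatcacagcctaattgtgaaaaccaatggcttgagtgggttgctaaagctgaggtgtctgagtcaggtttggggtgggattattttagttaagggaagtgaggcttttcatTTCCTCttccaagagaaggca
Itgam: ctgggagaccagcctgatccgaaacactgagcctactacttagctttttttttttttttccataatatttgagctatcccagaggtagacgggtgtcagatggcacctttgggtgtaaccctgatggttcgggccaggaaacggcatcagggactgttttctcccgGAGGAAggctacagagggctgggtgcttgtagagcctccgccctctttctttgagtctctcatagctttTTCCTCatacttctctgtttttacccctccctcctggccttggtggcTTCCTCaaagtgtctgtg
Cx3cr1: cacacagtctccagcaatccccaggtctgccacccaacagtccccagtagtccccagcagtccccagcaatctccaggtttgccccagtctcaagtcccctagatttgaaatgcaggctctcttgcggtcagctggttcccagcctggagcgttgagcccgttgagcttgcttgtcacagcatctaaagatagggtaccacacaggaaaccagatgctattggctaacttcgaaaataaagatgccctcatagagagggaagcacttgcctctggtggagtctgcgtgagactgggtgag
The window of Mrc1 held 3 matches, that of Itgam 3, that of Cd68 2 and that of Cx3cr1 none.

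**Figure D1:**
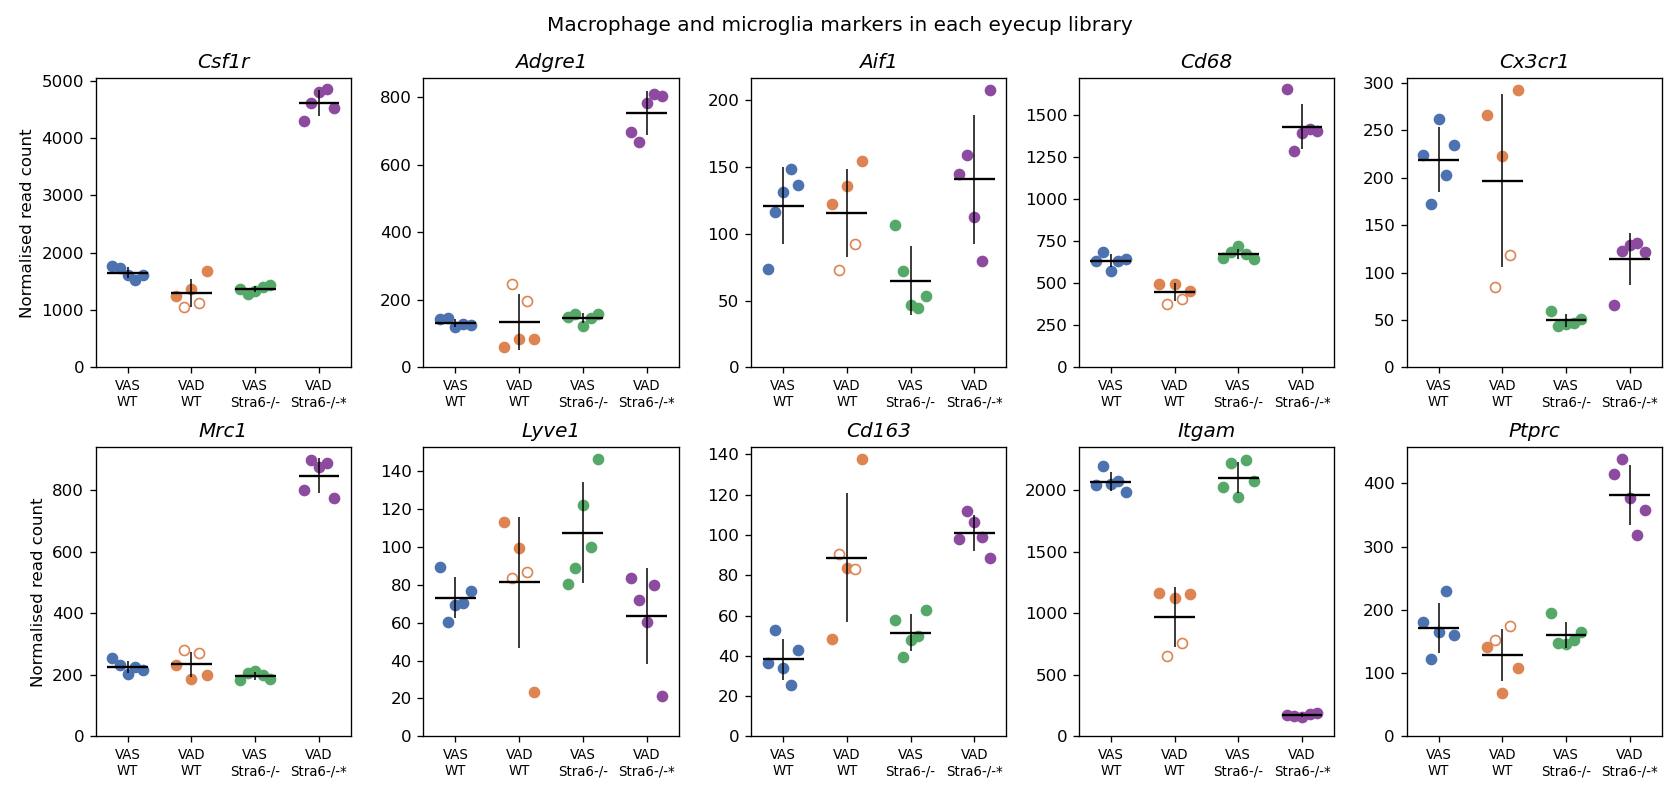
Normalised read count of each marker in the 20 libraries (points), with the group mean (horizontal bar) and SD (vertical line, n = 5), each panel with its own linear axis. Open points are VAD WT replicates 2 and 4. The asterisk marks the group labelled VAD Stra6-/-, whose Stra6 level, not set against RPE content, was above that of VAD WT. Its Csf1r values, 4288 to 4848, lie above all others and its Itgam values, 156 to 194, below all others.

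Levels of different genes were compared per kilobase of the longest coding transcript in GENCODE vM21, a length that is uncertain for Cx3cr1, whose gene model spans other genes. On this scale Cd68, a lysosomal membrane protein of phagocytes, had the highest level in every group, 515 ± 31.97 per kb in VAS WT (SD, n = 5) and 1162 ± 109 per kb in the libraries labelled VAD Stra6-/-. In VAS WT it was followed by Itgam at 442 ± 16.5 per kb and Csf1r at 351 ± 20.7 per kb, then by Aif1 at 138 ± 33.1 per kb. The other 6 markers lay between 8.62 and 48.8 per kb there. Cx3cr1 at 48.8 ± 7.58, Mrc1 at 42.2 ± 3.53, Adgre1 at 40.9 ± 3.57 and Ptprc at 33.9 ± 7.74 per kb were neighbours within about their SDs, and Cd163, the haemoglobin scavenger receptor, was the lowest at 8.62 ± 2.31 per kb. Itgam kept rank 2 in VAS Stra6-/- and stood at rank 7 in the libraries labelled VAD Stra6-/-, where its share of the summed level per kb of the 10 markers was 1.29% ± 0.0997 against 26.8% ± 0.657 in VAS WT. Adgre1 moved from rank 7 in VAS WT to rank 3 in the same libraries, with a share of 8.08% ± 0.688 against 2.48% ± 0.182.

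On the sufficient diet, Stra6-/- libraries had a lower level of 3 markers than WT libraries and a higher level of none. The Y-linked Ddx3y separated the same groups (log2 fold change -9.91), so loss of Stra6 and sex cannot be told apart in this comparison. Cx3cr1, the fractalkine receptor that microglia and patrolling monocytes carry, fell 4.34-fold, from 219 ± 34.1 to 49.5 ± 6.47 normalised read counts (SD, n = 5). Aif1, which encodes the actin-binding protein IBA1, fell 1.91-fold and Csf1r 1.21-fold. The other 7 markers did not pass the test, with log2 fold changes between -0.20 (Mrc1) and 0.52 (Lyve1). Of all genes tested, 26.6% were called in this comparison, 10.8% lower, so a count of 3 lower of 10 is set against that background. Beyond 1 on the log2 scale, Cx3cr1 was the 1 marker called, against 4.92% of all genes.

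Cx3cr1 values in VAS WT were 224, 172, 263, 203 and 235 normalised read counts in replicates 1 to 5. In VAS Stra6-/- they were 59.9, 43.9, 45.7, 46.4 and 51.5. All VAS Stra6-/- libraries lay below all VAS WT libraries, with a log2 fold change of -2.12 (SE 0.28, adjusted p = 9.683e-06, limma). Over 32 alternative settings this value stayed between -2.21 and -2.05. Csf1r lay at 1520 to 1759 in VAS WT and at 1284 to 1432 in VAS Stra6-/-, again without overlap, but its difference was small (log2 fold change -0.27, SE 0.09, adjusted p = 0.03272, limma), and the call was lost in 8 of 32 alternatives. Aif1 overlapped between the groups, at 73.6 to 148 in VAS WT and 44.8 to 107 in VAS Stra6-/- (log2 fold change -0.93, SE 0.29, adjusted p = 0.02112, limma), and its call was lost in 4 of 32. Over all genes, every VAS Stra6-/- library lay below every VAS WT library for 13.2%.

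Other microglial genes were also lower. In a list of 10 microglial genes, 5 fell and none rose (median log2 fold change -0.52, against 0.02 over all genes tested, of which 10.8% fell), among them the purinergic receptor genes P2ry13 (-1.20, SE 0.41) and P2ry12 (-1.16, SE 0.29). P2ry12, the gene most used to tell microglia from other macrophages, lay at 35.3 to 48.6 normalised read counts in VAS WT and at 16.9 to 20.6 in VAS Stra6-/-. In a list of 17 genes that all macrophages share, 2 rose, 2 fell and 13 did not pass, with a median of 0.07. Cd14 was among those that rose and Spi1 (-0.54, SE 0.16, adjusted p = 0.0169, limma) among those that fell. Other cell types moved in the same libraries: all 8 skeletal muscle genes rose (median 1.38), while of 10 RPE genes 2 fell and of 10 rod genes 1 fell. Of 9 monocyte and recruitment genes 2 fell (median -0.79), and of 10 blood vessel genes 3 fell (median -0.18). Their part in the result, and that of sex, was not tested.

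Between libraries labelled VAD WT and VAS WT, Cd163 was higher and Itgam, Cd68 and Csf1r were lower on the deficient diet. Cd163 rose from 38.3 ± 10.3 to 88.7 ± 32.01 normalised read counts (SD, n = 5; log2 fold change 1.16, SE 0.26, adjusted p = 0.005283, limma). Its values overlapped, 25.4 to 52.9 in VAS WT and 48.3 to 138 in VAD WT, and the call was lost when only these 2 groups entered the fit (adjusted p = 0.07909). Itgam, the alpha chain of complement receptor 3, fell from 2068 ± 77.2 to 970.1 ± 242 (log2 fold change -1.13, SE 0.13, adjusted p = 3.017e-06). Cd68 fell 1.43-fold and Csf1r 1.29-fold, with Cd68 at 575 to 685 in VAS WT and 376 to 495 in VAD WT. Of all genes tested, 8.78% were called in this comparison, 3.29% higher and 5.5% lower. Beyond 1 on the log2 scale, the 2 markers called were Cd163 and Itgam, against 1.74% of all genes. The Csf1r call was also lost with only the 2 groups in the fit (adjusted p = 0.1552). Other cell types moved between the same libraries: 9 of 10 RPE genes fell (median -1.24), with a summed value of 34248 to 60364 against 115534 to 132722, 5 of 8 skeletal muscle genes fell (median -1.10) and 3 of 10 sclera and fibroblast genes rose. Their part in the result was not tested.

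Markers inside VAD WT followed the split seen in Xist and Ddx3y. Replicates 2 and 4 lay below replicates 1, 3 and 5 for 5 markers, Csf1r, Aif1, Cd68, Cx3cr1 and Itgam, above them for Adgre1, Mrc1 and Ptprc, and overlapped them for Lyve1 and Cd163. Over all genes tested, 29.7% lay below and 31.5% above in this way. Cx3cr1 was 84.5 and 119 in replicates 2 and 4 and 266, 223 and 293 in replicates 1, 3 and 5. Adgre1, which encodes the macrophage surface receptor F4/80, was 247 and 197 in replicates 2 and 4 and 60.1, 85.1 and 84.5 in the other 3. So Cx3cr1 and Adgre1 ran in opposite directions within 1 group. Replicates 2 and 4 also held less Krt12 (113908 and 114762, against 381262 to 400653) and more Rpe65 (3908 and 3945, against 1107 to 1545).

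Without these 2 libraries, 5 markers rather than 3 were called lower in VAD WT than in VAS WT. Adgre1 (log2 fold change -0.80, adjusted p = 0.0001164, limma) and Ptprc, the leukocyte common antigen CD45 (-0.73, adjusted p = 0.009044), were added, and Cd163 stayed called higher. Cx3cr1 then had a log2 fold change of 0.25 (adjusted p = 0.3939), against -0.29 with all 5 libraries (adjusted p = 0.607). Under this choice 3306 genes were called higher and 3818 lower, against 618 and 1034 with all libraries.

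**Figure D2:**
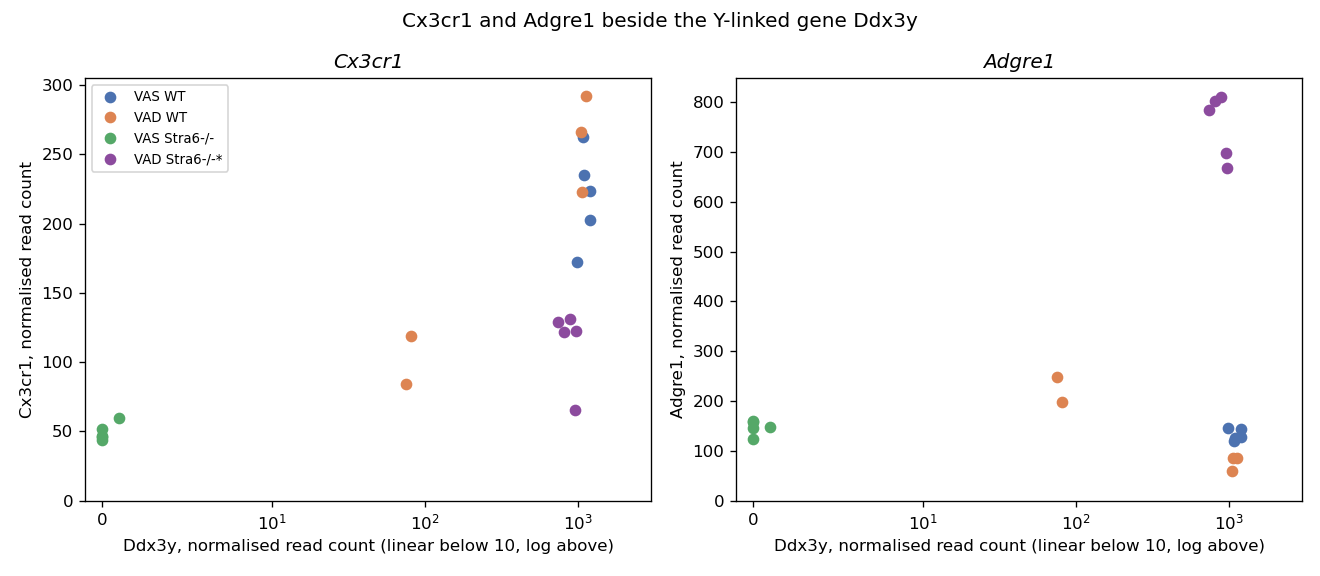
Cx3cr1 (left) and Adgre1 (right) in normalised read counts against the Y-linked gene Ddx3y in the 20 libraries, with the Ddx3y axis linear below 10 and logarithmic above; the asterisk marks the group labelled VAD Stra6-/-. VAD WT falls into replicates 2 and 4, with Ddx3y at 75.2 and 80.5, and replicates 1, 3 and 5, with Ddx3y at 1041 to 1133: the former are lower in Cx3cr1 and higher in Adgre1.

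In the libraries labelled VAD Stra6-/-, 5 of 10 markers were higher than in VAD WT, 2 were lower and 3 did not pass. Adgre1 rose 6.41-fold, Mrc1 3.65-fold, Csf1r 3.61-fold, Cd68 3.21-fold and Ptprc 3.07-fold. Itgam fell 5.41-fold and Cx3cr1 1.60-fold, while Aif1, Cd163 and Lyve1 did not pass the test. Of all genes tested, 55.9% were called in this comparison, 26.2% higher and 29.6% lower, so that a call alone says little here and the 5 of 10 higher are read against 26.2%. Beyond 1 on the log2 scale, 6 markers were called, 5 higher and Itgam lower, against 26.9% of all genes.

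Csf1r, which receives the survival signal of macrophages and microglia, had values of 1243, 1052, 1371, 1121 and 1683 in VAD WT replicates 1 to 5. In the libraries labelled VAD Stra6-/- they were 4288, 4602, 4806, 4848 and 4518. The lowest of the latter was above the highest of the former by more than the range of either group (log2 fold change 1.85, SE 0.09, adjusted p = 3.934e-13, limma). Mrc1, the mannose receptor CD206 of tissue-resident macrophages, was 231, 282, 186, 271 and 200.2 in VAD WT. It was 802, 899, 875, 889 and 775 in the libraries labelled VAD Stra6-/- (log2 fold change 1.87, SE 0.11, adjusted p = 8.76e-12). Again the groups did not overlap. The 3′ end of Csf1r overlaps Hmgxb3 on the other strand, and whether the counting used strand is not given in the sources used here.

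Adgre1 lay at 668 to 810.2 in the libraries labelled VAD Stra6-/- and at 60.1 to 247 in VAD WT (log2 fold change 2.68, SE 0.27, adjusted p = 2.177e-08, limma). With VAD WT replicates 2 and 4 left out the value was 3.29. Cd68 was at 1286 to 1652 against 376 to 495 (1.68, SE 0.08) and Ptprc at 319 to 438 against 68.1 to 175 (1.62, SE 0.21). For these 5 markers every labelled VAD Stra6-/- library lay above every VAD WT library, which held for 18.4% of all genes tested. The call of each was kept in all 32 alternatives.

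The lower level of Cx3cr1 in the same comparison rested on the choice of settings. Its values were 65.5, 123, 129, 131 and 122 in the libraries labelled VAD Stra6-/- and overlapped VAD WT (log2 fold change -0.68, SE 0.28, adjusted p = 0.04896, limma). The call was lost in 22 of 32 alternatives, 18 of them the removal of a single library, with adjusted p up to 0.1718 (limma). It was lower at -1.22 (adjusted p = 4.876e-05) when VAD WT replicates 2 and 4 were left out. Lyve1, a hyaluronan receptor of lymphatic vessels and of vessel-associated macrophages, overlapped in all comparisons, and replicate 5 was the lowest in both VAD groups, at 23.4 and 21.1.

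Between the 2 diets in mice labelled Stra6-/-, 8 markers were higher on the deficient diet, 1 was lower and 1 did not pass. Adgre1 rose by 2.35 (SE 0.27), Mrc1 by 2.10 (SE 0.11), Csf1r by 1.76 (SE 0.09) and Ptprc by 1.24 (SE 0.21) on the log2 scale. Cx3cr1 (1.15, SE 0.28), Aif1 (1.12, SE 0.29), Cd68 (1.08, SE 0.08) and Cd163 (0.97, SE 0.26) also rose, with adjusted p of 0.002927 or less (limma). Itgam fell by 3.59 (SE 0.13, adjusted p = 9.268e-16). Of all genes tested, 53.2% were called, 24.4% higher and 28.8% lower. Beyond 1 on the log2 scale, 8 markers were called, 7 higher and Itgam lower, against 23.9%. Lyve1 had a log2 fold change of -0.86 (SE 0.38, adjusted p = 0.06631), which passed the threshold without VAD WT replicate 5 (adjusted p = 0.01947) and in DESeq2 (adjusted p = 0.03169).

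The labelled VAD Stra6-/- libraries were higher than every VAS Stra6-/- library for 7 markers, which held for 24.5% of all genes, and lower for Itgam. For Aif1 and Lyve1 the groups overlapped. Aif1 lay at 79.9 to 208 on the deficient and at 44.8 to 107 on the sufficient diet.

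The difference between the diet effects in the 2 genotypes, tested as an interaction, was called for 8 of 10 markers, 7 more positive in mice labelled Stra6-/- and Itgam more negative, against 44.2% of all genes (19.5% higher and 24.8% lower). Adgre1 had the largest value at 2.53 (SE 0.38) and Aif1 the smallest of the 7 at 1.19 (SE 0.41, adjusted p = 0.02282, limma). Cd163 did not pass (-0.19, SE 0.36, adjusted p = 0.7105), and its diet effect was 1.16 in WT and 0.97 in mice labelled Stra6-/-. The 2 diet effects use different control libraries. The interaction shares the 4 groups with the comparisons above and is no separate evidence.

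**Figure D3:**
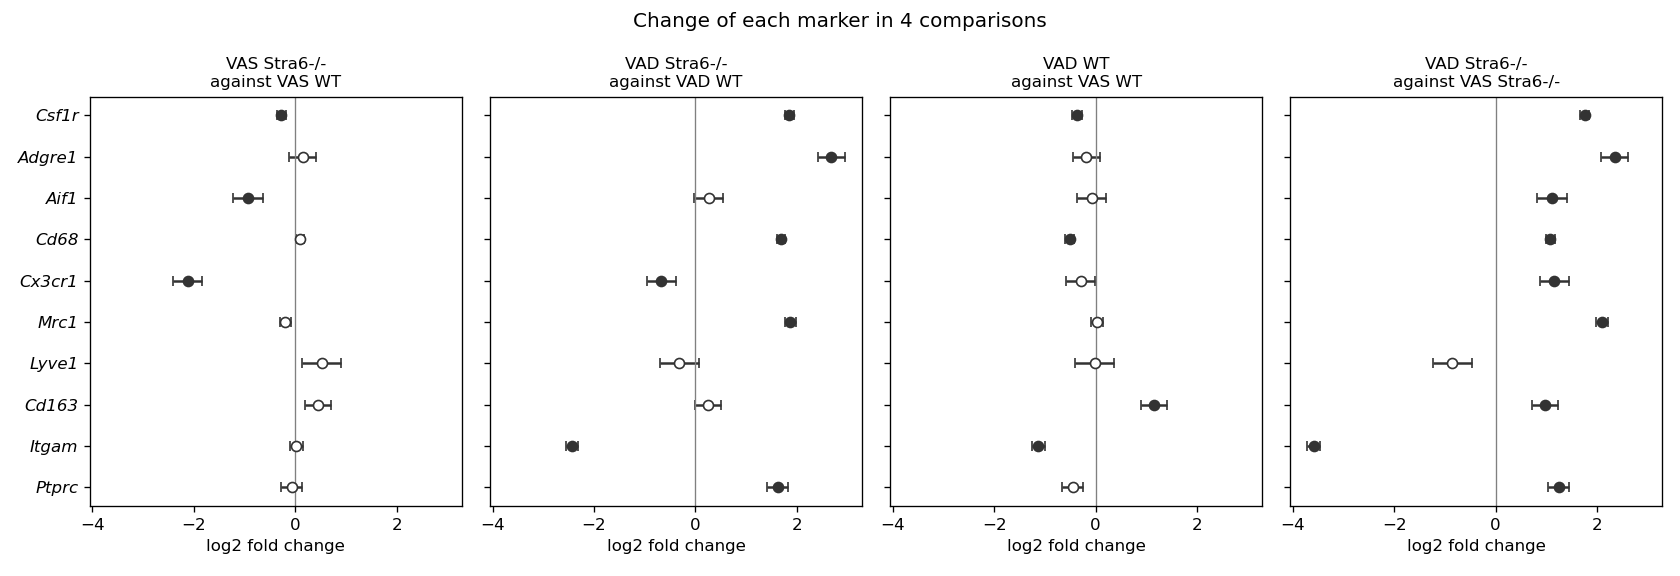
log2 fold change of each marker with its SE (limma on 20 libraries) in the 4 comparisons, with filled points for an adjusted p under 0.05. Itgam lies at 0.02, -2.44, -1.13 and -3.59 from left to right, whereas Csf1r lies at -0.27, 1.85, -0.37 and 1.76. Directions that involve either VAD group rest on labels that Stra6 levels, not set against RPE content, do not settle.

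Itgam stood apart from all other markers. Its values were 2041.0, 2194, 2046, 2074 and 1986 in VAS WT and 2022, 2221, 1945, 2241 and 2072 in VAS Stra6-/-. They were 1160.1, 655, 1121, 762 and 1153 in VAD WT and 173, 170, 156, 178 and 194 in the libraries labelled VAD Stra6-/-. Both VAS groups overlapped, VAD WT lay below both, and the last group lay below all other libraries. Over the 20 libraries Pearson's r of log2 values was -0.957 between Itgam and Mrc1 and -0.885 between Itgam and Adgre1. These values describe 4 groups and share the makeup of each library.

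Itgb2 encodes the beta chain with which the Itgam protein pairs to form complement receptor 3. It lay at 147 to 259 normalised read counts in VAS WT, 81.9 to 188 in VAD WT, 163 to 216 in VAS Stra6-/- and 563 to 695 in the libraries labelled VAD Stra6-/-. Between the last group and VAD WT it rose by 2.25 on the log2 scale (SE 0.20, adjusted p = 3.13e-09, limma), where Itgam fell by 2.44 (SE 0.13, adjusted p = 6.167e-13). Between libraries labelled VAD WT and VAS WT both had values below 0, -0.49 for Itgb2, which did not pass (SE 0.20, adjusted p = 0.1357), and -1.13 for Itgam. The ratio of Itgam to Itgb2 per kb was 7.14 ± 1.36 in VAS WT, 5.20 ± 2.86 in VAD WT, 6.82 ± 0.788 in VAS Stra6-/- and 0.175 ± 0.0199 in the libraries labelled VAD Stra6-/- (SD, n = 5).

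**Figure D4:**
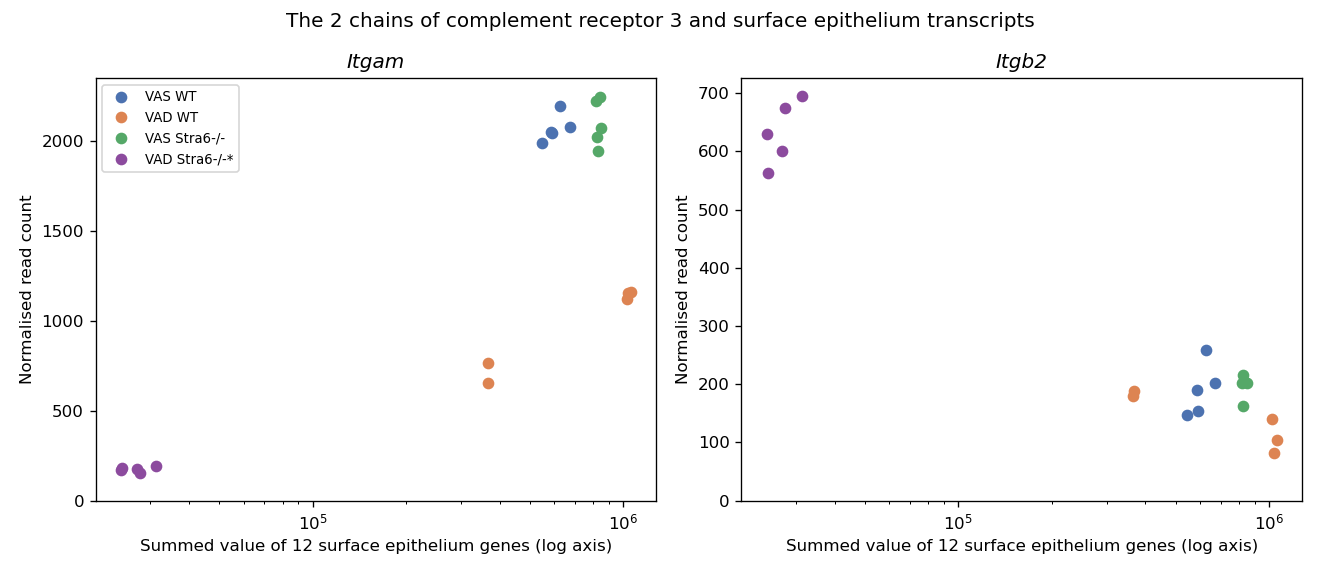
Itgam (left) and Itgb2 (right), which encode the chains of complement receptor 3, in normalised read counts against the summed value of 12 surface epithelium genes (logarithmic axis) in each of the 20 libraries; the asterisk marks the group labelled VAD Stra6-/-. Libraries with the lowest summed value, 24214 to 31406, hold the least Itgam, 156 to 194, and the most Itgb2, 563 to 695. VAD WT replicates 1, 3 and 5 have the highest summed values, 1023894 to 1056606. Their Itgam, 1121 to 1160, lies below that of both VAS groups.

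The genes most like Itgam across the 20 libraries, a search added after the values were seen, were Slc6a14 (r = 0.996), Slc5a1 (0.994), Cd24a (0.994), Serinc2 (0.991) and the keratin gene Krt17 (0.990), out of 14753 genes with a mean value of at least 20. All 12 surface epithelium genes fell in the libraries labelled VAD Stra6-/- against VAD WT (median log2 fold change -4.49), and their summed value was 24214 to 31406 there against 365746 to 1056606 in VAD WT. The part of surface epithelium in the Itgam values was not tested. In GENCODE vM21 the gene Itgam (chr7:128062640-128118491, plus strand) is overlapped on the same strand by a second model, Gm49368 (chr7:128062683-128128160), which has no row in the table, so reads of the 2 models cannot be told apart here.

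As a description, each marker was set against the mean log2 level of the 17 shared macrophage genes in the same library, with VAS WT at 0. The mean of these genes was -0.37 ± 0.207 in VAD WT, 0.20 ± 0.039 in VAS Stra6-/- and 1.23 ± 0.035 in the libraries labelled VAD Stra6-/-. Relative to it, Cd68 and Ptprc had group means between -0.27 and 0, so these 2 followed the list. Cx3cr1 was at -2.32 ± 0.194 in VAS Stra6-/- and at -2.20 ± 0.421 in the libraries labelled VAD Stra6-/-. Aif1 was at -1.13 ± 0.537 and -1.05 ± 0.512 in the same groups. In VAD WT, Cx3cr1 was at 0.87, 0.48 and 0.95 in replicates 1, 3 and 5 and at -1.22 and -0.70 in replicates 2 and 4. Adgre1 was at 1.26 ± 0.142 and Itgam at -4.80 ± 0.142 in the libraries labelled VAD Stra6-/-, and Cd163 was at 1.52 ± 0.534 in VAD WT.

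Csf1r, Adgre1, Cd68, Mrc1 and Ptprc are the 5 markers called higher in the libraries labelled VAD Stra6-/- against VAD WT, and that choice fixes a high correlation over the 20 libraries (Pearson's r of 0.825 to 0.943 in their 10 pairs). Deviations from the group means of the same pairs gave r between -0.654 and 0.639, with a median of -0.461. Over all 45 pairs the median r was 0.198, from -0.957 to 0.943, and -0.114 within groups. The genes most like Csf1r were Gpx3 (0.988), Ctnnal1, Fbxw4, Cryab and Phgdh (0.980). Those most like Cd68 were Ildr2 (0.984), Slc4a5, Car12, Slc2a12 and Slc22a8 (0.977). Lyve1 had no close neighbour, with Dnah10 (0.796), Xrcc3, Nr2c2, Amigo3 and Slc35d1 (0.751) the nearest. In searches added after the values were seen, Cx3cr1 was most like Tada2a (0.922) and the Y-linked Eif2s3y (0.918), and Adgre1 most like the collagen gene Col8a2 (0.990, and 0.930 within groups).

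Ligands of the marker receptors were measured in the same libraries. Csf1 and Il34 encode the ligands of the Csf1r product, Cx3cl1 encodes fractalkine, C3 and Icam1 encode ligands of complement receptor 3, and Hp encodes haptoglobin, whose complex with haemoglobin is taken up by the Cd163 product. None of the 6 was called between VAS Stra6-/- and VAS WT or between the diets in WT (limma), where 2 (Cx3cl1 and C3) and 0 had an unadjusted p under 0.05. With VAD WT replicates 2 and 4 left out, Cx3cl1, C3 and Icam1 were called higher in VAS Stra6-/- than in VAS WT, and libraries labelled VAD WT then had lower Csf1, Cx3cl1 and Icam1 and higher Hp than VAS WT.

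Il34 lay at 348 to 421 normalised read counts in the libraries labelled VAD Stra6-/- and at 132 to 280.2 in VAD WT (log2 fold change 0.86, SE 0.20, adjusted p = 0.0007607, limma). Against VAS Stra6-/-, at 204 to 227, the difference was 0.85 (SE 0.20, adjusted p = 0.0009435). Icam1 was higher by 1.12 (SE 0.21) and 0.78 (SE 0.21) in these 2 comparisons and C3 by 0.55 (SE 0.14) in the first. Csf1 was not called in either, at 608 to 665 in the labelled VAD Stra6-/- libraries and 421 to 764 in VAD WT. Against VAD WT its value of 0.22 became 0.34 without VAD WT replicate 2, 0.31 without replicate 4 and 0.49 without both, and each of these was called (adjusted p = 0.01564, 0.04474 and 2.547e-05, limma). Cx3cl1 was lower than in VAS Stra6-/- (-0.60, SE 0.16, adjusted p = 0.002929), at 1128 to 1375 against 1893 to 1967, where Cx3cr1 was higher. Against VAD WT Cx3cl1 was not called (-0.0049, SE 0.16), but without VAD WT replicates 2 and 4 it was called higher (0.36, adjusted p = 0.000718, limma). Hp was called higher in both (0.72 and 0.71), but the calls were lost in 17 and 18 of 32 alternatives.

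Wider macrophage lists showed where the markers stood. Of the 17 shared macrophage genes, 16 were higher with the label VAD Stra6-/- than with VAD WT and 1 did not pass (median log2 fold change 1.49, against -0.05 over all genes tested, of which 26.2% were higher). The lysozyme gene Lyz2 (2.93, SE 0.21), the protease gene Ctss (2.81, SE 0.15) and the co-receptor gene Cd14 (2.65, SE 0.18) had the largest values. In the WT diet comparison 8 of the 17 fell and 1 rose (median -0.42), where 5.5% and 3.29% of all genes did. Of 10 microglial genes, 8 were higher against VAD WT and 8 against VAS Stra6-/-. P2ry12 lay at 39.9 to 92.2 in the libraries labelled VAD Stra6-/- and at 18.4 to 46.0 in VAD WT, and Siglech, another defining microglial gene, was low in every group, at 1.87 to 40.6.

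Lists for resident and perivascular macrophages, lipid and damage associated macrophages, and monocytes were less uniform. Against VAD WT, the labelled VAD Stra6-/- libraries had 5 of 14 resident genes higher and 3 lower, near the shares over all genes of 26.2% and 29.6%, with Cbr2 the most changed (-4.30, SE 0.11). Cbr2 lay at 521 to 655 normalised read counts in these libraries and at 8690 to 18089 in all others. All 12 surface epithelium genes fell in the same comparison (median -4.49), and their part in the Cbr2 values was not tested. Of 11 lipid and damage associated genes, 8 were higher and 2 lower, with the glycoprotein gene Gpnmb, also a gene of pigment cells, at 2.85 (SE 0.19), Mmp12 at 2.81 (SE 0.18) and Clec7a at 2.66 (SE 0.23). Of 9 monocyte and recruitment genes, 7 were higher and 1 lower, among them Chil3, which lay at 24.2 to 55.02 and at 0 in all 5 VAD WT libraries, and the chemokine genes Ccl7 (3.98, SE 0.74) and Ccl2 (3.35, SE 0.46), with Ccl2 at 104 to 176 against 4.26 to 24.8. The 1 gene called lower was Plac8 (-3.13, SE 0.30). The summed value of the 9 genes, in which each gene counts by its level, was 754 to 994 there against 754 to 2434.

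Ptprc and Itgam are also carried by other leukocytes. Of 16 genes of lymphocytes, granulocytes, mast cells and dendritic cells in the table, 8 rose and 1 fell from VAD WT to the labelled VAD Stra6-/- libraries. Their summed value was 962 to 1074 normalised read counts against 296 to 418, with the eosinophil gene Siglecf (3.98, SE 0.47) and the mast cell gene Cpa3 (3.18, SE 0.70) the most changed of those detected in VAD WT. Of the lymphocyte genes, Cd4 (1.05, SE 0.18) and Nkg7 (2.10, SE 0.71) were called higher, Cd8a was not (1.96, SE 0.83, adjusted p = 0.05071, limma), and Cd3e lay at 3.61 to 12.1 against 2.60 to 12.4. The neutrophil gene S100a9 lay at 101 to 177 against 9.10 to 89.0. Lyve1 also marks lymphatic vessels, and of 6 lymphatic genes 2 were higher and 2 lower in this comparison, near the shares over all genes (26.2% and 29.6%). The largest change was that of the chemokine gene Ccl21a, at 0 to 76.1 against 222 to 688. The 2 called higher were Pdpn (1.99, SE 0.07) and Reln (1.74, SE 0.08). Prox1, a transcription factor of lymphatic vessels, lay at 23.4 to 51.8 against 11.7 to 146, with VAD WT replicate 5, the library lowest in Lyve1 in its group, also lowest in Prox1. The part of these cells in the marker values was not tested.

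Beside the macrophage lists, 9 of 10 RPE genes (median 3.42), 6 of 7 choroidal melanocyte genes (1.76), 8 of 10 sclera and fibroblast genes (1.29) and all 8 skeletal muscle genes (1.78) were higher with the label VAD Stra6-/- than with VAD WT. Rod genes were lower, 8 of 10, with a median of -0.97, and 5 of 10 blood vessel genes were higher with 1 lower. The median of the 10 markers was 0.94, within the range of these lists.

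**Figure D5:**
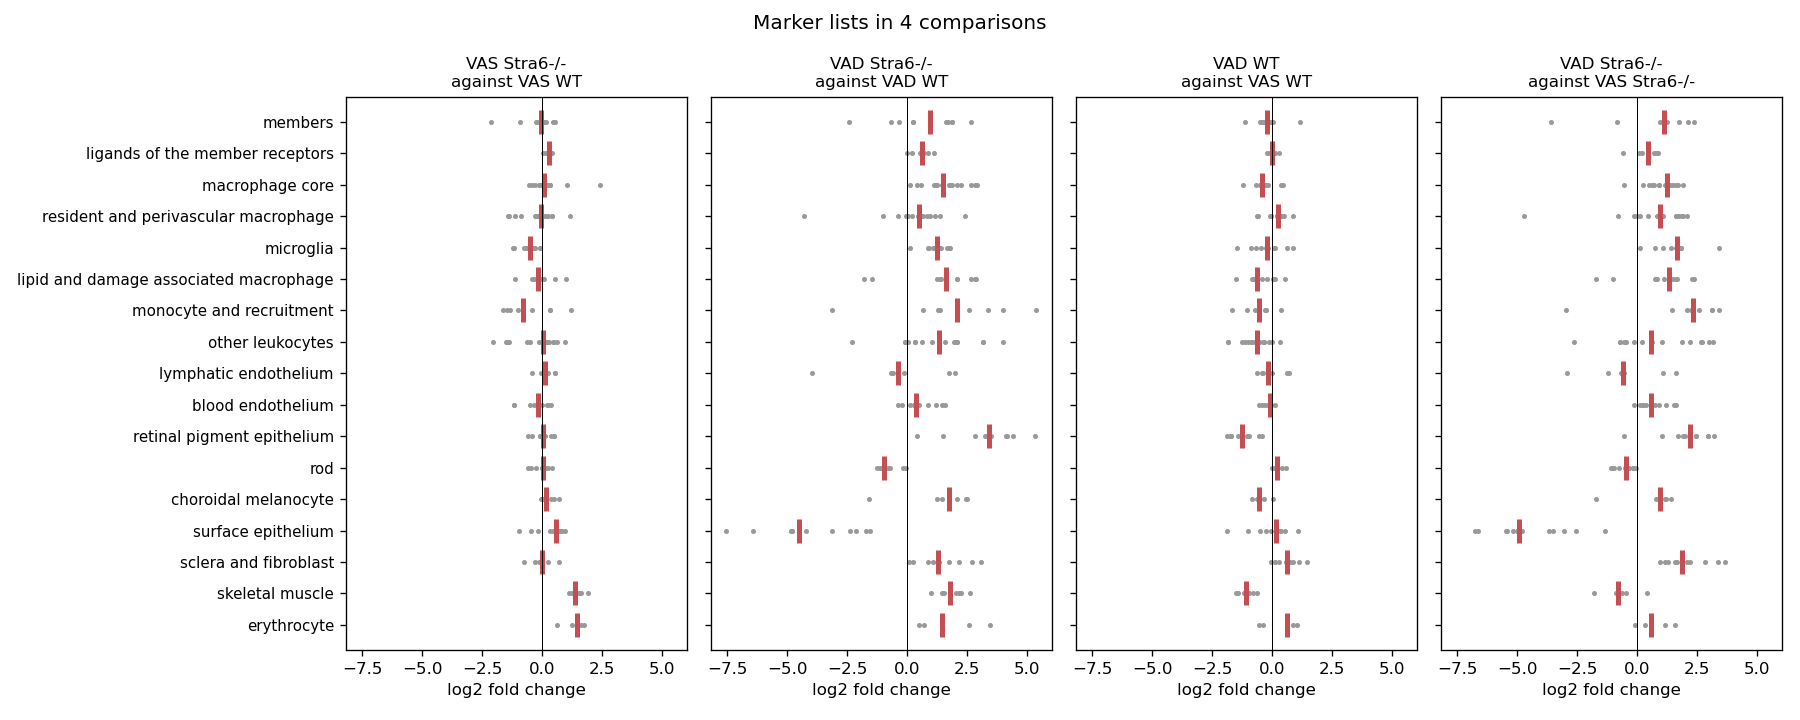
log2 fold change (limma on 20 libraries) of every gene tested of the 17 lists (grey points) and the list median (red bar) in the 4 comparisons. In the comparison of the labelled VAD Stra6-/- libraries with VAD WT the shared macrophage genes have a median of 1.49, the RPE genes 3.42 and the surface epithelium genes -4.49. Directions that involve either VAD group rest on labels that Stra6 levels, not set against RPE content, do not settle.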

How the data were processed

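Poly(A) RNA of RPE and choroid eyecups was sequenced, per the paper for 5 mice in each of 4 groups. The authors mapped paired reads with STAR 2.5.3a to GRCm38/mm10 and counted genes with RSEM 1.2.30, and per the labels used DESeq2 1.32.0. The deposited signal is a gene's count divided by 1 size factor per library, a normalised read count. Values were whole multiples of 1 read in all 20 libraries (100% within 0.01). In VAD Stra6-/- replicate 1 a read is worth 1.01, too near 1 to tell these steps from whole numbers, so the count tests used the other 19.

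From these values, log2(value + 1) was fitted with limma 3.58.1 (R 4.3.3) with 4 group means and a mean-variance trend, on the 18807 genes with at least 5 reads. Fold changes are on this scale, which understates those of low genes, and p-values were Benjamini-Hochberg adjusted over all genes tested and called under 0.05. The fit was tested on simulated data. The alternatives were edgeR 4.0.16 and DESeq2 1.42.0 on the reads of 19 libraries, other scalings, pseudocounts and filters, a fit without trend, fits of 2 groups, a replicate block and removal of libraries. Figures and levels used Python 3.11.15, pandas 2.3.3, numpy 2.4.6 and matplotlib 3.10.9.

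The markers and lists were chosen with earlier results of these data known. Text names all 10 markers, their 6 ligands, Itgb2 and, of a list, at most the 3 called genes with the largest change in the comparison described, not each of them. Xist, Ddx3y, Krt12, Rpe65, Siglech, Cd3e, Cd4, Nkg7, Cd8a, S100a9, Prox1, Cbr2, Plac8 and, outside its own comparison, P2ry12 were named after their values were seen. Genes most alike were ranked by Pearson's r for Csf1r, Cd68 and Lyve1, and for Itgam, Cx3cr1, Mrc1 and Adgre1 after values were seen. Same-numbered replicates of different groups were not paired: 1 of 30 pairs of deviations correlated above 0.1 (-0.144 to 0.115).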

Additional observations from a re-analysis of the deposited data

Results flagged for a closer look

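Cx3cr1 in replicate 1 of the libraries labelled VAD Stra6-/- was 65.5 normalised read counts, far from the other 4 at 122 to 131. Its gap divided by the range of the group was above 0.71, the 95% critical value for 5 samples. Of 64 groups checked this was the single one, which is no more than the share of about 1 in 20 that chance gives.

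The effect of diet differed between mice labelled Stra6-/- and WT by the interaction test for 8 of 10 markers and 2 of 6 ligands. Of all genes tested, 44.2% were called in this test, 19.5% higher and 24.8% lower. On the log2 scale it was more positive in mice labelled Stra6-/- by 2.12 for Csf1r, 2.53 for Adgre1, 1.19 for Aif1, 1.59 for Cd68, 1.44 for Cx3cr1, 2.07 for Mrc1 and 1.69 for Ptprc. For Itgam the difference was -2.46. For the ligand genes Il34 and Icam1 it was 0.71 and 0.79, and both calls were lost in 15 of 31 alternatives. These values rest on VAD libraries whose labels the Stra6 levels, not set against RPE content, do not settle.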

How the results depend on the processing

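Most values kept their direction and side of the threshold: 1523 of the markers' values under the alternatives did so, 24 turned direction, 6 gained a call and 37 lost one. The count of markers called lower in VAS Stra6-/- against VAS WT, 3, was 1 with a fold limit of 1 on the log2 scale and 1 to 3 with single libraries removed (1 without VAS WT replicate 5 or VAS Stra6-/- replicate 3). Under the fold limit 1 marker was also called lower for the WT diet. Cx3cr1 left the 2 markers called lower against VAD WT, leaving 1, with upper quartile scaling, no filter, no trend, only 2 groups or the fold limit, and in 18 of 20 removals (range 1 to 2). With only 2 groups fitted, 1 marker (Lyve1) was called higher in VAS Stra6-/- and 0 were higher in VAD WT. DESeq2 gave 2 markers lower between the diets in mice labelled Stra6-/-, as did removal of VAD WT replicate 5 (range 1 to 2), and that removal also gave 2 lower in the interaction (Lyve1 at -1.24, adjusted p = 0.02564, limma; range 1 to 2). The other counts did not change with single removals. Without VAD WT replicates 2 and 4, 5 markers were lower in VAD WT, and the interaction of Aif1 was lost (0.90, adjusted p = 0.07261).

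Values that turned direction had not been called in the main fit. For VAS Stra6-/- against VAS WT these were Itgam at -0.0035 with TMM, -0.0021 with edgeR and -0.0724 with upper quartile scaling, which also gave Cd68 at -0.0021 and Csf1 at -0.0441, and Cx3cl1 at 0.0074 against VAD WT. For the WT diet comparison edgeR and DESeq2 gave Adgre1 at 0.0424 and 0.0376, Lyve1 at 0.153 and 0.1532, C3 at 0.034 and 0.0356, and Icam1 at 0.1321 and 0.1303. Without VAD WT replicates 2 and 4, Aif1 was at -0.0341 and Cx3cl1 at 0.3612 against VAD WT, Aif1 at 0.2169, Cx3cr1 at 0.2534, Mrc1 at -0.1413 and Il34 at -0.1355 for the WT diet, and Hp at -0.0232 for the interaction. Of these, the Cx3cl1 value was itself called (adjusted p = 0.000718, limma). With single removals, Itgam (-0.0031 to 0.048) and Ptprc (-0.1882 to 0.0393) turned in VAS Stra6-/- against VAS WT, and Lyve1 (-0.715 to 0.03) and Cx3cl1 (-0.1539 to 0.1423) against VAD WT. In the WT diet comparison Adgre1 (-0.4548 to 0.0506), Aif1 (-0.2439 to 0.0757), Mrc1 (-0.0416 to 0.1084), Lyve1 (-0.1746 to 0.382), Csf1 (-0.2093 to 0.0051), C3 (-0.1231 to 0.098) and Icam1 (-0.2247 to 0.1436) did. The cause was not tested.

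Over all genes, VAS Stra6-/- against VAS WT gave 2310 higher and 2931 lower with upper quartile scaling, against 2984 and 2026, and 4537 and 3671 with 2 groups fitted. DESeq2 called 1059 higher and 1082 lower for the WT diet, against 618 and 1034, and 2 groups 201 and 438. With the replicate block no marker's call changed, while Hp was lost against VAD WT (adjusted p = 0.07234, limma) and against VAS Stra6-/- (0.07872), as was the interaction of Il34 (0.0668).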
